A study of Mus musculus with 12 samples.

Results

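The matrix metalloproteinases (MMPs), the ADAMTS proteases and their inhibitors were examined in lungs recovering from acute lung injury (ALI). The 47 genes were all those in the deposited expression table whose symbol is Mmp, Timp or Adamts followed by a number, with an optional a or b, together with Reck, out of 55414 genes in all. No level of expression was required. Total RNA of whole lung was sequenced from 12 mice on day 4 after LPS, the bacterial lipopolysaccharide used to induce ALI. Of these mice, 6 were IL-10 B-KO (knockout), in which Mb1-Cre removes a floxed Il10, the Cre being a recombinase expressed from the Cd79a gene in B-lineage cells, and 6 were IL-10 B-WT (wild type). All mice had a C57BL/6J background and all received LPS, so that no lung without LPS was compared. Which alleles the IL-10 B-WT mice carried, and the ages, are not given in the sources used here. The question was how the loss of Il10 in B cells changes gene expression in the injured lung. Values were TPM, a unit in which reads are divided by the length of the gene and every library is brought to 1 common total. The depth of sequencing is not known from TPM, and precision was judged from the spread between the 6 lungs of a genotype.

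MMPs are zinc proteases that cut collagens, elastin, laminin and other matrix proteins, as well as cytokines and receptors at the cell surface. They are made as inactive precursors, are activated by other proteases, and are held in check by the 4 tissue inhibitors of metalloproteinases (Timp1 to Timp4) and by Reck, a glycoprotein anchored in the cell membrane. ADAMTS proteases carry thrombospondin repeats and act mainly on proteoglycans, on procollagens and on microfibrils. In injured lung, neutrophils and macrophages deliver several MMPs, while fibroblasts, pericytes and epithelium make membrane-bound MMPs and inhibitors.

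The promoters of 5 members whose values are described first are shown here, as RefSeq gives them on GRCm38.p6, 5′ to 3′ on the strand of the gene, from 250 bases before the start site to 50 bases from it onward. They belong to the one member past the test (Reck) and to 4 whose levels were high in many of the same lungs. Capitals mark matches, on either strand, to 3 short motifs. The first, bound by AP-1 factors that inflammation activates, is TGANTCA. A second, the TATA box that places the start of transcription in some promoters, was searched as TATAAA. The GC box, common in promoters without a TATA box, was searched as GGGCGG. The windows lie at chr4:43875280-43875579 (Reck, plus strand), chrX:20869916-20870215 (Timp1, plus strand), chr14:54431348-54431647 (Mmp14, plus strand), chr9:7558179-7558478 (Mmp8, plus strand) and chr9:7347124-7347423 (Mmp12, plus strand, the downstream of 2 entries).
Reck: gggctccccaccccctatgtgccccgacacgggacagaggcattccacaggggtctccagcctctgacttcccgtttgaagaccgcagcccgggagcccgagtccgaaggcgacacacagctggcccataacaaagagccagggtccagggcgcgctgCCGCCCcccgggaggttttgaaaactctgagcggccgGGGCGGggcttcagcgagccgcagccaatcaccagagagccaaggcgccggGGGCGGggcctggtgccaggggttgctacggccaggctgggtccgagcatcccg
Timp1: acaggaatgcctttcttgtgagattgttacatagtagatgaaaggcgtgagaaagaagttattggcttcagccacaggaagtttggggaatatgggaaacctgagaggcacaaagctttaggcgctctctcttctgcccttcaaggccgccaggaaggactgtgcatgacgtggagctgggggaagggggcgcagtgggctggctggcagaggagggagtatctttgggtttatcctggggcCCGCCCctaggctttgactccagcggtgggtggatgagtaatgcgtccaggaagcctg
Mmp14: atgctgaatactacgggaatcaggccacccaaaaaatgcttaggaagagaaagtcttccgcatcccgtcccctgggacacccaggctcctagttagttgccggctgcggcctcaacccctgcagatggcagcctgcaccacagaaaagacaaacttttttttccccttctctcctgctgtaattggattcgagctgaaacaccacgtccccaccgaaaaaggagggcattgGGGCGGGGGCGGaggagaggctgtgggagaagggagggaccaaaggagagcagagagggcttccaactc
Mmp8: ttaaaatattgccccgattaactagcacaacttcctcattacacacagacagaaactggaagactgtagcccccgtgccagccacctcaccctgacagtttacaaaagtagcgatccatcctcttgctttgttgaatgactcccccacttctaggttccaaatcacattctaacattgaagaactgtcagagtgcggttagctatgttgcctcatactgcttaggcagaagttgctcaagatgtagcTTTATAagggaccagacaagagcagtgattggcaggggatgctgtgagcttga
Mmp12: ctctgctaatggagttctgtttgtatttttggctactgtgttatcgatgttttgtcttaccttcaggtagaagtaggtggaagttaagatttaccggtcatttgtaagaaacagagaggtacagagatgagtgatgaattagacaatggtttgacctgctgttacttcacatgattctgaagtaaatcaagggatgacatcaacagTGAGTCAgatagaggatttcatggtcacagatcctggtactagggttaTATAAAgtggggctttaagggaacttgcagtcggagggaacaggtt

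Reck, Timp1 and Mmp14 hold GC boxes and neither the TATA nor the AP-1 letters. Mmp8 holds the TATA letters on the other strand, and Mmp12 both the TATA and the AP-1 letters. Counted from the start base as 0, the AP-1 letters of Mmp12 lie from -44 to -38. Its TATA letters lie from 4 to 9, after the start base, and those of Mmp8 from -3 to 2, across it. RefSeq promoters were found for 33 of the 47 genes, with 36 entries. The AP-1 letters were in 8 of the 36 entries (Mmp1a, Mmp1b, Mmp3, Mmp7, Mmp10, Mmp12, Mmp13 and Mmp20) and in 7.81% of all 32851 promoters of that length. The TATA box was in 11 entries and in 13.6% of all promoters, and the GC box in 19 entries and in 35.7%. A match is a description of the letters only.

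Some lungs were often at the edge of their groups. Wild-type replicate 1 was the highest of its group for 14 of the 26 genes tested, against 44.9% of all 15148 tested genes, and knockout replicate 2 was the lowest of its group for 12, against 32.3% of all tested genes. Both held for 11 of the 26 (24.5% of all tested genes). Both were also left out together, a choice made with their values known, which leaves 5 lungs against 5. Leaving out the highest lung of one group and the lowest of the other widens a difference by construction, and 15.2% of all tested genes then passed the adjusted p, against 0.522% with all lungs. Wild-type replicate 5 had mt-Atp8 at 111400 TPM, and was the lowest of its group for 75.7% of all tested genes and for 16 of the 26. The targeted gene, Il10, was between 0 and 0.88 TPM in wild-type lungs and between 0 and 0.58 TPM in knockout lungs, so that its transcript did not separate the genotypes. Cd79a, a B cell receptor component, was lower in every knockout lung (0 to 5.73 TPM) than in every wild-type lung (15.3 to 258.6 TPM). The summed TPM of 5 B cell markers, all lower in knockout lungs, was 59.2 to 658.4 in wild-type lungs and 3.37 to 64.0 in knockout lungs, where the highest value was that of replicate 2. The sum in knockout replicate 2 thus lay within the wild-type range, while its Cd79a, at 4.35 TPM, was below every wild-type lung, and wild-type replicate 1 had the lowest sum of its group but Cd79a above every knockout lung. Whether these lungs carry the right labels was not tested beyond these values. The genotypes therefore differed in B cell RNA as a whole and not in Il10 alone. The surfactant gene Sftpc was at 2548 TPM or more in every lung.

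Among the 47 genes, 1 passed an adjusted p of 0.05, namely Reck, which fell in knockout lungs. Before adjustment, Adamts8, Adamts10 and Timp2 were lower too, and Mmp8, Mmp9, Mmp12, Timp1 and Adamts9 were higher. The test was limma on log2(TPM + 1) over the 15148 genes with at least 1 TPM in at least 6 of the 12 libraries, with Benjamini-Hochberg adjustment. Of the 47 genes, 26 met that minimum. A gene that is high in 1 genotype meets it more easily, so that the 26 are not all members. The share past the adjusted p was 1 of 26 (3.85%), where it was 0.522% of all tested genes. At an unadjusted p of at most 0.05, 4 of the 26 were lower (15.4%), against 5.71% of all tested genes, and 5 were higher (19.2%), against 6.83% of all tested genes. No member had groups that did not overlap, which 0.924% of all tested genes had in the lower and 0.0924% in the higher direction. The median log2 fold change was 0.18 over the 26 genes and 0.10 over all tested genes, with 10 of the 26 below 0 and 16 above. Centring each library on its median moved the median of all tested genes to -0.01 and that of the 26 to 0.07. Log2 fold changes are knockout minus wild-type throughout, and on this scale they understate the change of genes at low TPM.

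**Figure D1:**
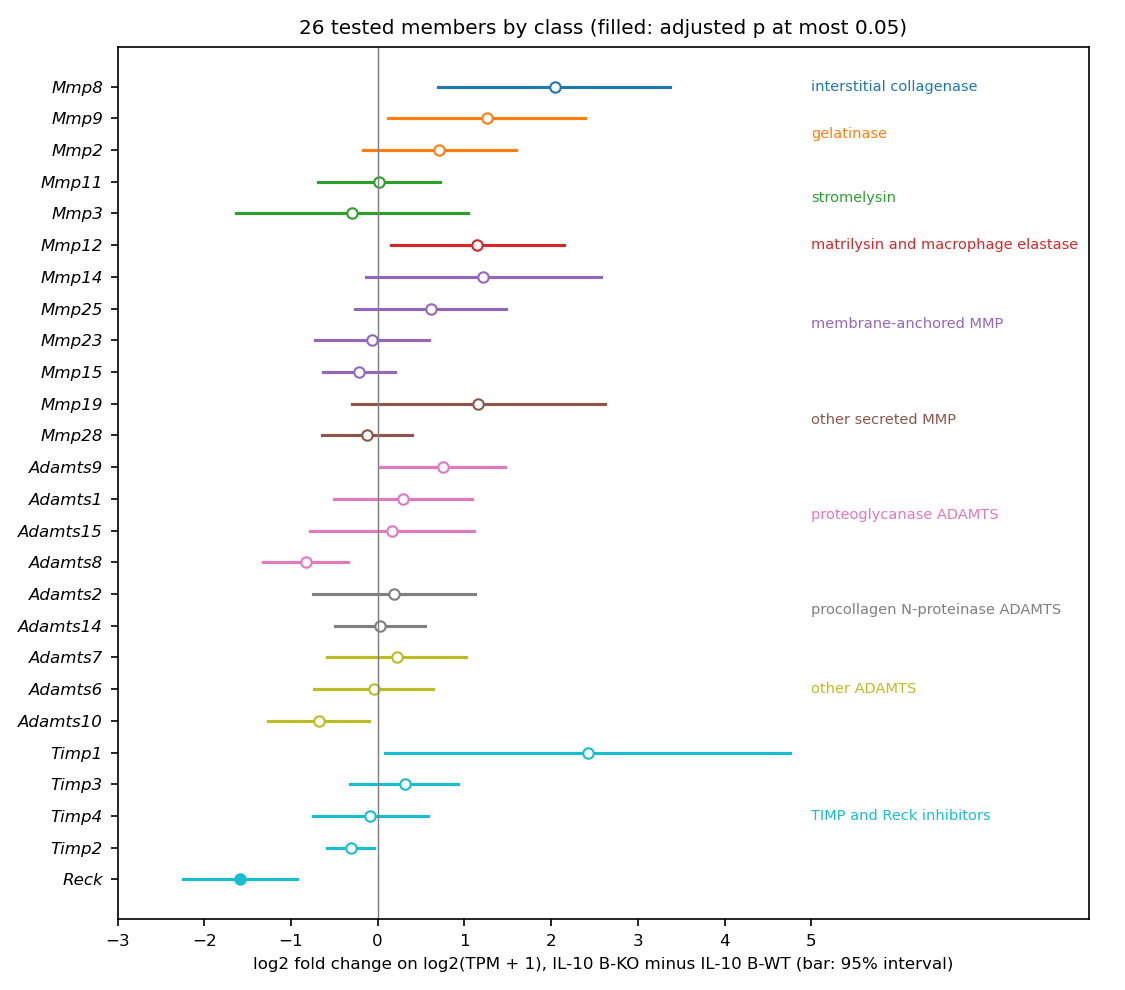
Log2 fold change on log2(TPM + 1), IL-10 B-KO minus IL-10 B-WT, with its 95% interval (limma, n = 6 lungs in each group), for the 26 members tested, in the order of their classes. Only Reck, at -1.59, is filled for an adjusted p of at most 0.05, and the widest interval is that of Timp1, from 0.09 to 4.75.

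Reck fell in knockout lungs and was the one inhibitor past the adjusted p. Reck (ENSMUSG00000028476, GRCm38 chromosome 4, 43875530 to 43944806, plus strand) restrains Mmp2, Mmp9 and Mmp14 at the cell surface. Its levels were 7.62, 21.9, 16.5, 25.7, 24.7 and 24.2 TPM in wild-type replicates 1 to 6 and 8.23, 8.75, 4.50, 6.46, 4.60 and 2.89 TPM in knockout replicates 1 to 6. The mean was 20.1 ± 6.94 TPM (SD, n = 6) in wild-type lungs and 5.91 ± 2.31 TPM (SD, n = 6) in knockout lungs. Wild-type replicate 1 alone lay within the knockout range, and 4 knockout lungs were below every wild-type lung. The log2 fold change was -1.59 (standard error, SE, 0.31, 95% interval -2.25 to -0.93, limma adjusted p = 0.037), and the ratio of the medians was 0.240. An exact permutation test of the means (two-sided, smallest possible p 0.00216) gave p = 0.00649 (n = 6 in each group). The size held better than the call: without 1 lung at a time, the log2 fold change lay between -1.83 and -1.44, but the adjusted p was 0.0613 to 0.105 without any 1 of 10 of the lungs, 0.00335 without wild-type replicate 1 and 0.0298 without knockout replicate 2. It was 0.06 after rescaling without immunoglobulin genes, 0.0956 after quantile normalization, 0.101 after centring each library on its median, and 0.116 with no filter on low values.

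Markers of pericytes, the contractile cells around capillaries, moved with Reck. All 7 were lower in knockout lungs (median log2 fold change -1.16), and Notch3 (-1.78, adjusted p = 0.0236) and Pdgfrb (-1.44, adjusted p = 0.0456) passed the test. Their summed level was 190.8 to 471.3 TPM in wild-type lungs, lowest in replicate 1, and 61.8 to 232.2 TPM in knockout lungs, and none of the 7 was at 0 in every lung. Smooth muscle markers were also lower, 6 of 6 with 0 past the adjusted p, from a summed 259.6 to 1065 TPM to 111.8 to 549.5 TPM. The same held for 6 of 6 cardiomyocyte markers (median log2 fold change -1.36, 0 past the adjusted p), whose sum was 64.8 to 1571 TPM in wild-type lungs and 23.4 to 428.5 TPM in knockout lungs. Endothelial markers were lower in 6 of 6 genes (median -0.37, 0 past the adjusted p), with sums of 1328 to 2598 TPM and 1316 to 2334 TPM, and airway epithelial markers in 4 of 5 (median -0.89, 0 past the adjusted p). Lists with the opposite sign were alveolar type 2 (6 of 6 higher, median 0.85) and mesothelial markers (4 of 4 tested higher, median 1.16), while alveolar type 1 markers were split, 3 higher and 3 lower, each with 0 past the adjusted p. In whole lung, fewer cells of a type and less RNA per cell cannot be told apart, and the part of these cells in the fall of Reck was not tested.

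Timp1 had the largest difference of the soluble inhibitors and also the widest spread. Timp1 is a secreted inhibitor of most soluble MMPs and is readily induced in inflamed tissue. Its levels were 251.2, 12.8, 14.3, 11.4, 7.02 and 9.56 TPM in wild-type replicates 1 to 6 and 45.5, 7.04, 474.7, 93.6, 913.7 and 84.7 TPM in knockout replicates 1 to 6. In each group 1 lung ran against the rest, since wild-type replicate 1 was above 4 knockout lungs and knockout replicate 2 was at the level of the lowest wild-type lung. The medians were 12.1 and 89.1 TPM, and the log2 fold change of 2.42 (SE 1.08) did not pass the adjusted test (limma adjusted p = 0.381). The exact permutation test gave p = 0.0779 (n = 6). Without the 2 lungs, the levels were 7.02 to 14.3 TPM against 45.5 to 913.7 TPM, a difference of 3.90 on the log2 scale (SE 0.68, adjusted p = 0.00366, limma).

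Timp2 and Timp3 were the inhibitors with the highest levels in wild-type lungs and differed far less. Timp2, which inhibits MMPs and also helps Mmp14 to activate the precursor of Mmp2, was between 185.1 and 206.9 TPM in wild-type lungs (median 193) and between 134 and 197.4 TPM in knockout lungs (median 152). In 5 of 6 knockout lungs it was below every wild-type lung, and replicate 1 was the exception. The log2 fold change of -0.31 (SE 0.13) had an unadjusted p of 0.0288 and an adjusted p of 0.353 (limma), and the exact permutation test gave p = 0.013 (n = 6). Timp3, which binds to the matrix and also inhibits ADAMTS proteases and ADAM17, was 86.1 to 158.2 TPM and 85.1 to 334.7 TPM, with a log2 fold change of 0.31 (adjusted p = 0.647). Timp4 was between 0.52 and 4.08 TPM in all lungs, and its log2 fold change was -0.09 (adjusted p = 0.912). Exons of Timp3 and Timp4 overlap Syn3 and Syn2 on the other strand, and the strandedness of the libraries is not given in the sources used here.

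**Figure D2:**
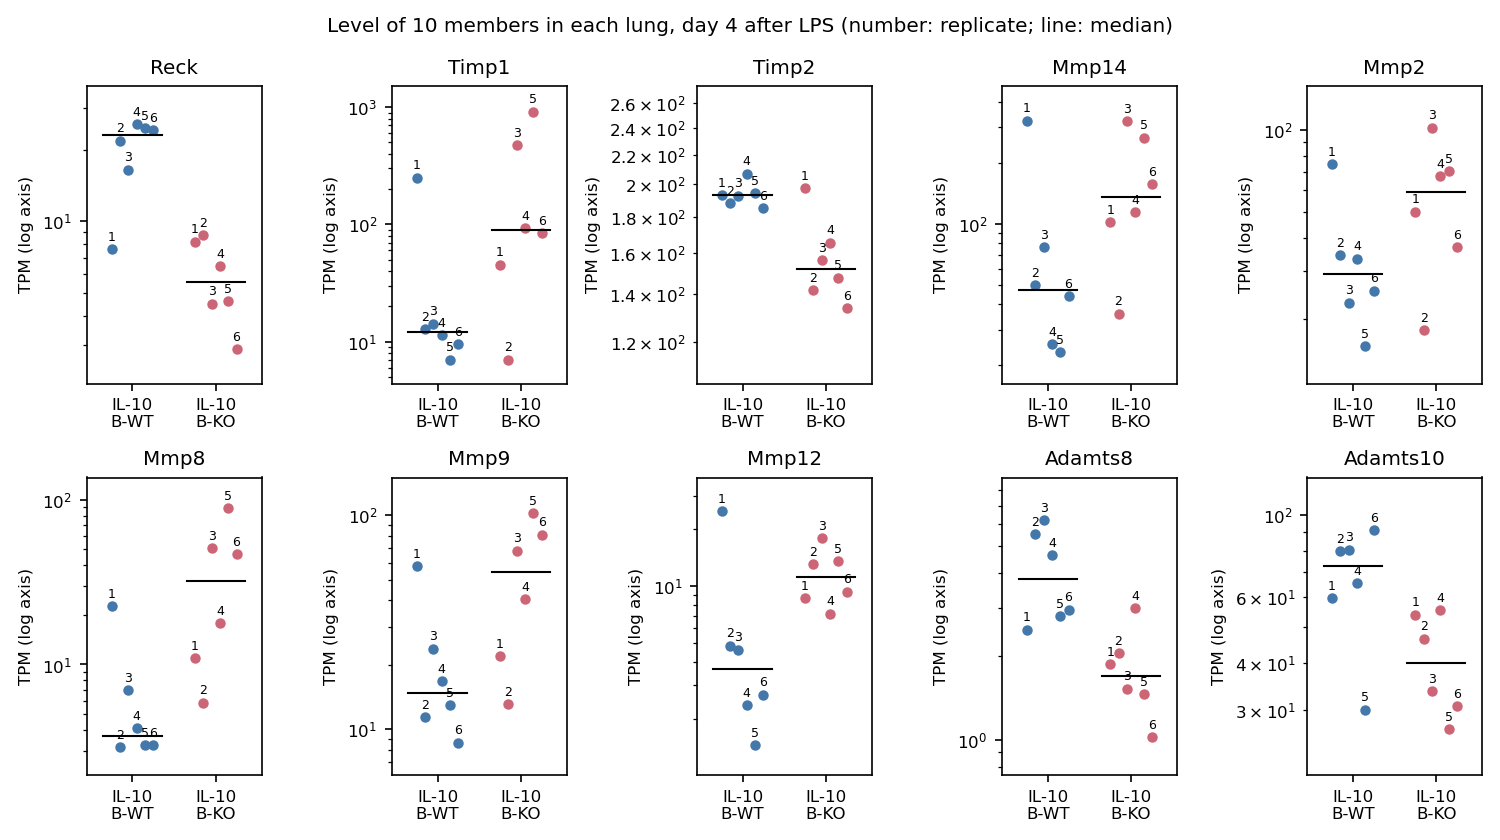
TPM of 10 members in each lung on a log axis, by genotype, with the replicate number above each point and the group median as a line. The median of Reck is 23.1 TPM for the wild-type and 5.53 TPM for the knockout lungs. For Timp1, Mmp14, Mmp2, Mmp8 and Mmp9, wild-type replicate 1 is the highest and knockout replicate 2 the lowest of its group.

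Among the membrane-anchored MMPs, Mmp14 had the highest TPM in 9 of 12 lungs, and Mmp15 in wild-type replicates 4 and 5 and knockout replicate 2. Mmp14 (MT1-MMP), a collagenase of the cell surface and the activator of the Mmp2 precursor, was at 322, 49.8, 76.7, 25.5, 23.2 and 44.0 TPM in wild-type replicates 1 to 6 and at 102, 36.0, 319.1, 114.2, 265.2 and 156.7 TPM in knockout replicates 1 to 6. All knockout lungs but replicate 2 were above all wild-type lungs but replicate 1, and replicate 1 was the highest of the 12. With all lungs, the log2 fold change was 1.22 (SE 0.63, 95% interval -0.14 to 2.58, limma adjusted p = 0.442). Without the 2 lungs it was 2.09 (SE 0.38, limma adjusted p = 0.00447), and the exact permutation test gave p = 0.00794, the smallest that 5 lungs against 5 allow. The groups overlapped only through these 2 lungs, so leaving them out fixed that p in advance, and nothing is concluded from it. Mmp15 (MT2-MMP) was 24.7 to 31.0 TPM in wild-type lungs and 16.1 to 38.4 TPM in knockout lungs, with a log2 fold change of -0.22 (adjusted p = 0.626). Mmp25, a lipid-anchored MMP of neutrophils, was 0.64 to 6.54 TPM and 1.40 to 8.90 TPM (log2 fold change 0.61, adjusted p = 0.522), and Mmp23 was 7.47 to 20.8 TPM and 5.88 to 22.0 TPM (log2 fold change -0.06, adjusted p = 0.941). The remaining 3 of this class, Mmp16, Mmp17 and Mmp24, were at 1.42 TPM or less in every lung.

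The balance of Mmp14 to its inhibitors was read within each lung. The ratio of Mmp14 to Reck, both in TPM, was 0.941 to 42.3 in wild-type lungs (median 2.04) and 4.11 to 70.9 in knockout lungs (median 35.9). Without the 2 lungs, it was 0.941 to 4.64 against 12.4 to 70.9. Those 2 lungs were the highest wild-type and the lowest knockout lung for this ratio, so leaving them out widens the difference by construction. The ratio of Mmp14 to Timp2 was 0.119 to 1.67 (median 0.251) against 0.253 to 2.04 (median 0.930). These ratios use the same levels as the tests above and were not tested on their own.

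The gelatinases Mmp2 and Mmp9, which cut denatured collagen and basement membrane collagen, were both higher on average in knockout lungs without passing the adjusted test. Mmp9, stored in neutrophil granules and made by macrophages, was 57.7, 11.4, 23.8, 16.7, 12.9 and 8.63 TPM in wild-type replicates 1 to 6 and 22.0, 13.1, 68.5, 40.5, 102.2 and 81.2 TPM in knockout replicates 1 to 6. The groups overlapped through wild-type replicate 1 and knockout replicates 1 and 2. Its log2 fold change was 1.26 (SE 0.53, unadjusted p = 0.0321, adjusted p = 0.361, limma), and without the 2 lungs 1.92 (SE 0.39, adjusted p = 0.00691). Mmp2, made mainly by mesenchymal cells, was 15.9 to 75.0 TPM in wild-type lungs (median 29.5) and 18.2 to 102 TPM in knockout lungs (median 58.8). Mmp2 had a log2 fold change of 0.71 (SE 0.41, adjusted p = 0.475), and without the 2 lungs 1.24 (SE 0.28, adjusted p = 0.0122), with 15.9 to 34.5 TPM against 37.0 to 102 TPM.

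Mmp8 was the only interstitial collagenase above the minimum. This collagenase of neutrophil granules was at 22.6, 3.15, 6.96, 4.09, 3.23 and 3.24 TPM in wild-type replicates 1 to 6 and at 10.9, 5.87, 50.6, 17.8, 88.8 and 46.5 TPM in knockout replicates 1 to 6. In 3 knockout lungs it was above every wild-type lung. Mmp8 had a log2 fold change of 2.04 (SE 0.62, 95% interval 0.70 to 3.37), with an unadjusted p of 0.00566 and an adjusted p of 0.235 (limma), and the exact permutation test gave p = 0.0238 (n = 6). Without the 2 lungs the log2 fold change was 2.80 (SE 0.47, adjusted p = 0.00309), and without wild-type replicate 1 alone it was 2.41 (adjusted p = 0.0391). Mmp13, the collagenase of cartilage and bone, stayed between 0.02 and 1.96 TPM. Mmp1a and Mmp1b were listed at 0 in all 12 libraries.

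Neutrophil markers moved with Mmp8 and Mmp9. All 9 were higher in knockout lungs (median log2 fold change 1.48). With all lungs, 0 of the 9 passed the adjusted p, where 0.522% of all tested genes did. Without the 2 lungs, 6 passed as higher, where 10.3% of all tested genes did. The summed level of the 9 was 378.9 to 2506 TPM in wild-type lungs, highest in replicate 1. In knockout lungs it was 1161 to 7728 TPM, lowest in replicate 2, and none of the 9 was at 0 in every lung. Leaving out these 2 lungs thus widens the difference by construction, and nothing is concluded from the 6 calls. The largest neutrophil marker differences were in Retnlg (2.09, adjusted p = 0.187) and S100a8 (1.94, adjusted p = 0.266). The part of these cells in the values of Mmp8, Mmp9 and Mmp25 was not tested.

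Mmp12, the macrophage elastase, was 24.9, 4.87, 4.64, 2.37, 1.46 and 2.68 TPM in wild-type replicates 1 to 6 and 8.64, 13.0, 17.9, 7.18, 13.6 and 9.34 TPM in knockout replicates 1 to 6. Every knockout lung, replicate 2 included, was above 5 of the 6 wild-type lungs, and wild-type replicate 1 was above them all. Over all lungs, its log2 fold change was 1.15 (SE 0.47, unadjusted p = 0.0274, adjusted p = 0.352, limma). Without wild-type replicate 1 alone it was 1.60 (adjusted p = 0.0124), and without both lungs 1.56 (SE 0.30, adjusted p = 0.00535). Exons of Mmp12 overlap those of Mmp1b on the other strand. Markers of monocytes and interstitial macrophages were higher in knockout lungs in 7 of 7 genes, with 0 past the adjusted p and a median log2 fold change of 1.48. Their summed level was 165.2 to 2170 TPM in wild-type lungs, highest in replicate 1, and 383.9 to 2981 TPM in knockout lungs, lowest in replicate 2. Of 8 alveolar macrophage markers, 6 were higher and 2 lower, with 0 past the adjusted p, and their sums were 447.8 to 864.9 TPM and 534.9 to 1660 TPM. The part of these cells in the values of Mmp12 was not tested.

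**Figure D3:**
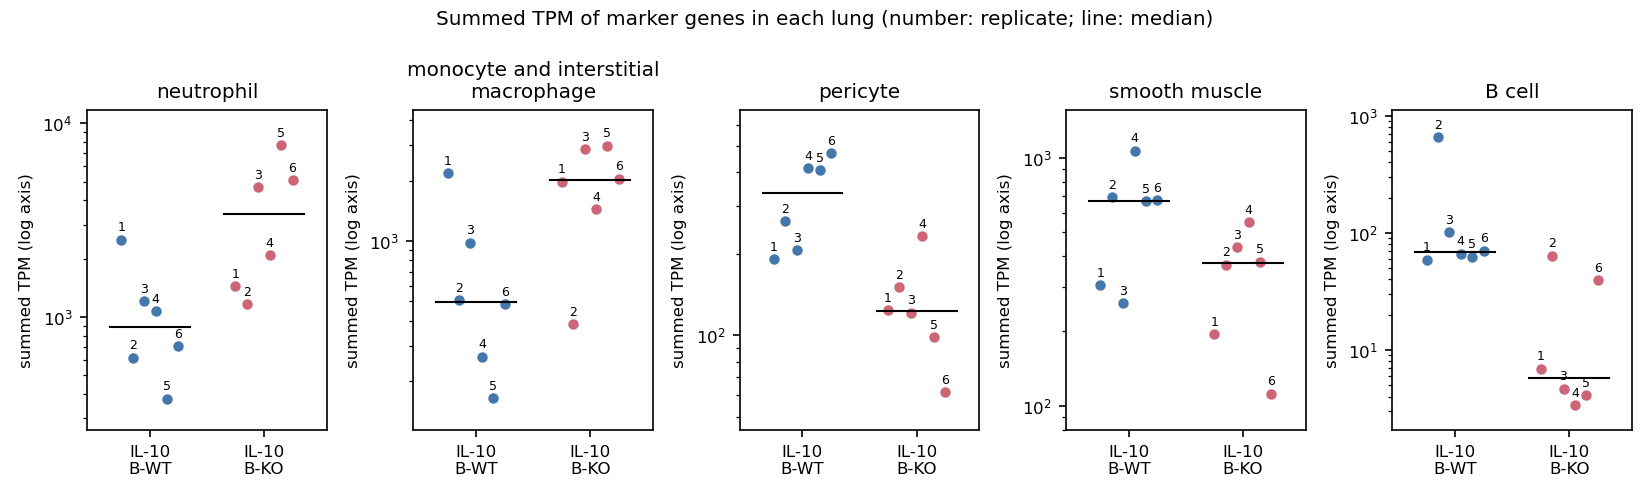
Summed TPM of the marker genes of 5 cell types in each lung on a log axis, by genotype, with the replicate number above each point and the group median as a line. IL-10 B-WT replicate 1 is the highest of its group for neutrophil markers (2506 TPM) and for monocyte and interstitial macrophage markers (2170 TPM), and the lowest for pericyte markers (190.8 TPM).

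The stromelysins and the other secreted MMPs did not pass the test. Mmp3, which activates other MMPs, was 5.34 to 52.1 TPM in wild-type lungs, highest in replicate 2, and 2.78 to 31.4 TPM in knockout lungs, with a log2 fold change of -0.30 (SE 0.62, adjusted p = 0.844). Mmp11, which is activated inside the cell by furin, was 6.24 to 27.5 TPM and 9.12 to 27.6 TPM, with a log2 fold change of 0.02 (95% interval -0.69 to 0.72, adjusted p = 0.986) that turned below 0 under quantile normalization, median centring and rescaling without immunoglobulin genes. Mmp10 did not exceed 1.16 TPM. Mmp19 stood at 2.45 to 22.8 TPM in wild-type lungs and at 3.41 to 59.0 TPM in knockout lungs, where replicates 3 and 5 had 59.0 and 53.6 TPM and the other 4 had 7.99 TPM or less. Its log2 fold change was 1.16 (SE 0.68, adjusted p = 0.477). Mmp28, found in epithelium, was 7.67 to 16.3 TPM and 6.32 to 19.5 TPM (log2 fold change -0.12, adjusted p = 0.844). Exons of Mmp11, Mmp19 and Mmp28 overlap other genes on the opposite strand. Mmp20, Mmp21 and Mmp27 were low, at 0.02, 0.07 and 1.31 TPM at most, and Mmp7, the matrilysin, was at 0.60 TPM at most.

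Among the ADAMTS proteases, Adamts8 and Adamts10 were lower and Adamts9 higher before adjustment, and none passed the adjusted p. Adamts8, which can cut the proteoglycan aggrecan, was 2.50, 5.51, 6.22, 4.63, 2.80 and 2.95 TPM in wild-type replicates 1 to 6 and 1.87, 2.05, 1.53, 2.98, 1.46 and 1.02 TPM in knockout replicates 1 to 6. Only knockout replicate 4 overlapped the wild-type lungs. The log2 fold change was -0.83 (SE 0.23, unadjusted p = 0.00271, adjusted p = 0.161, limma), the exact permutation test gave p = 0.00866 (n = 6), and without wild-type replicate 1 the log2 fold change was -0.93 (adjusted p = 0.0412). Adamts10, a protease that binds fibrillin microfibrils, had the highest level of the family in wild-type lungs, at 30.0 to 91.0 TPM (median 72.7), against 26.6 to 55.5 TPM (median 40.1) in knockout lungs. Its log2 fold change was -0.68 (SE 0.27, unadjusted p = 0.0255, adjusted p = 0.349, limma), and the lowest wild-type value, 30.0 TPM, was that of replicate 5. Adamts9, a protease of versican, was 2.76 to 10.2 TPM in wild-type lungs (median 4.98) and 4.30 to 16.9 TPM in knockout lungs (median 9.0), with a log2 fold change of 0.75 (SE 0.33, unadjusted p = 0.042, adjusted p = 0.381, limma). Exons of Adamts8 and Adamts9 overlap uncharacterized transcripts on the other strand.

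The remaining ADAMTS genes tested had smaller differences. Adamts1, which also cuts versican and aggrecan, was 18.2 to 58.3 TPM and 17.8 to 67.8 TPM (log2 fold change 0.29, 95% interval -0.50 to 1.09, adjusted p = 0.734). The procollagen N-proteinases Adamts2 and Adamts14, which trim fibrillar procollagens, had log2 fold changes of 0.19 (adjusted p = 0.865) and 0.03 (adjusted p = 0.967), with 2.09 to 17.1 TPM and 1.48 to 4.86 TPM over all lungs. The direction of Adamts14 turned under median centring and under rescaling without immunoglobulin genes. Adamts6, Adamts7 and Adamts15 had log2 fold changes of -0.04, 0.22 and 0.16, none past the test. Adamts4, an aggrecanase that inflammation induces, was at 1 TPM or more in too few lungs to be tested, with 7.76 TPM in wild-type replicate 1, 16.3 and 16.2 TPM in knockout replicates 3 and 5, 4.37 TPM in replicate 6, 1.99 TPM in replicate 4 and 0.91 TPM or less in the other lungs. Adamts12, also untested, was highest in the same 3 lungs, at 3.72, 4.94 and 2.10 TPM. Adamts17 was 0.30 to 1.00 TPM in wild-type lungs and 0.13 to 0.51 TPM in knockout lungs, and its exact permutation test gave p = 0.013 (n = 6), 1 of 47 such tests, not adjusted and chosen after its values were seen. Of the 47 genes, 12 were below 1 TPM in every lung, among them the 2 listed at 0.

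Across the 12 lungs, many of these genes were high in the same lungs whatever the genotype. Wild-type replicate 1 and knockout replicates 3 and 5 were the 3 highest lungs for 9 of the 26 genes (Timp1, Mmp2, Mmp12, Mmp14, Mmp19, Adamts2, Adamts7, Adamts9 and Adamts15), against 16.0% of all tested genes. Knockout replicate 6 was the lowest of its group for 7 of the 26 genes, against 17.3% of all tested genes. The 7 were Reck, Timp2, Timp4, Adamts8, Adamts14, Mmp3 and Mmp23. In the same lung Mmp8 and Mmp9 were near the top, at 46.5 and 81.2 TPM. The sum of all MMPs was 118.1 to 630.1 TPM in wild-type lungs (median 210) and 181.4 to 717.5 TPM in knockout lungs (median 381). Mmp14 alone made up 14.1% to 51.1% of that sum in wild-type lungs and 19.8% to 44.5% in knockout lungs. The sum of the 4 TIMPs was 289.3 to 602.9 TPM (median 343) and 250.4 to 1399 TPM (median 415), and without Timp1 it was 282.2 to 351.7 TPM and 243.4 to 485.2 TPM. Timp1 took 2.43% to 41.7% of the TIMP sum in wild-type lungs (median 3.54%) and 2.81% to 65.3% in knockout lungs (median 21.5%), and its share was highest in wild-type replicate 1 and in knockout replicates 3 and 5. The sum of the ADAMTS genes was 64.6 to 180.2 TPM and 88.4 to 184.7 TPM.

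**Figure D4:**
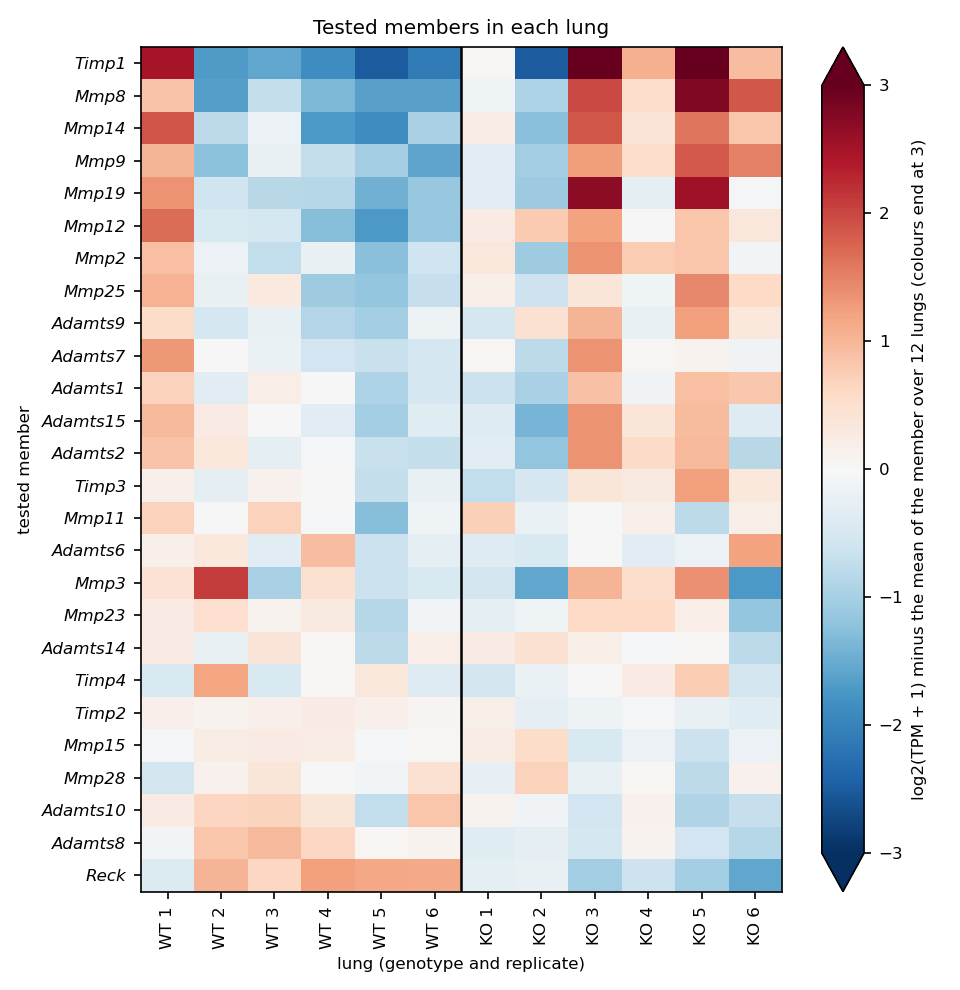
Level of the 26 members tested in each lung, as log2(TPM + 1) minus the mean of that member over the 12 lungs, with members in the order of their log2 fold change without 2 lungs. IL-10 B-WT replicate 1 shares the colours of IL-10 B-KO replicates 3 and 5 in most upper rows, and Reck in the lowest row is above its mean in 5 of 6 IL-10 B-WT lungs.

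Without wild-type replicate 1 and knockout replicate 2, 8 of the 26 genes passed the adjusted p. Mmp2, Mmp8, Mmp9, Mmp12, Mmp14 and Timp1 were higher (23.1%), where 10.3% of all tested genes were, and Reck and Adamts8 were lower (7.69%), where 4.94% of all tested genes were. Reck reached a log2 fold change of -1.94 (SE 0.24, limma adjusted p = 0.0011), with 16.5 to 25.7 TPM against 2.89 to 8.23 TPM. The lungs left out were its lowest wild-type lung (7.62 TPM) and its highest knockout lung (8.75 TPM). The wider gap for Reck thus follows from the choice of lungs, and nothing more is concluded from it. Mmp19 had a log2 fold change of 1.88 (adjusted p = 0.0512), at 2.45 to 5.20 TPM against 6.37 to 59.0 TPM. Leaving out wild-type replicate 1 alone gave 4 calls (Reck, Adamts8, Mmp8 and Mmp12), or 15.4% of the 26 against 5.02% of all tested genes. Leaving out knockout replicate 2 alone gave 1 (Reck), with 0.878% of all tested genes called, and leaving out any 1 of the other 10 gave 0, with 0.125% to 0.416% of all tested genes called. The log2 fold change moved toward a larger size in Timp1, Mmp8, Mmp9, Mmp14 and Reck, and little in Timp2 and Adamts10.

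**Figure D5:**
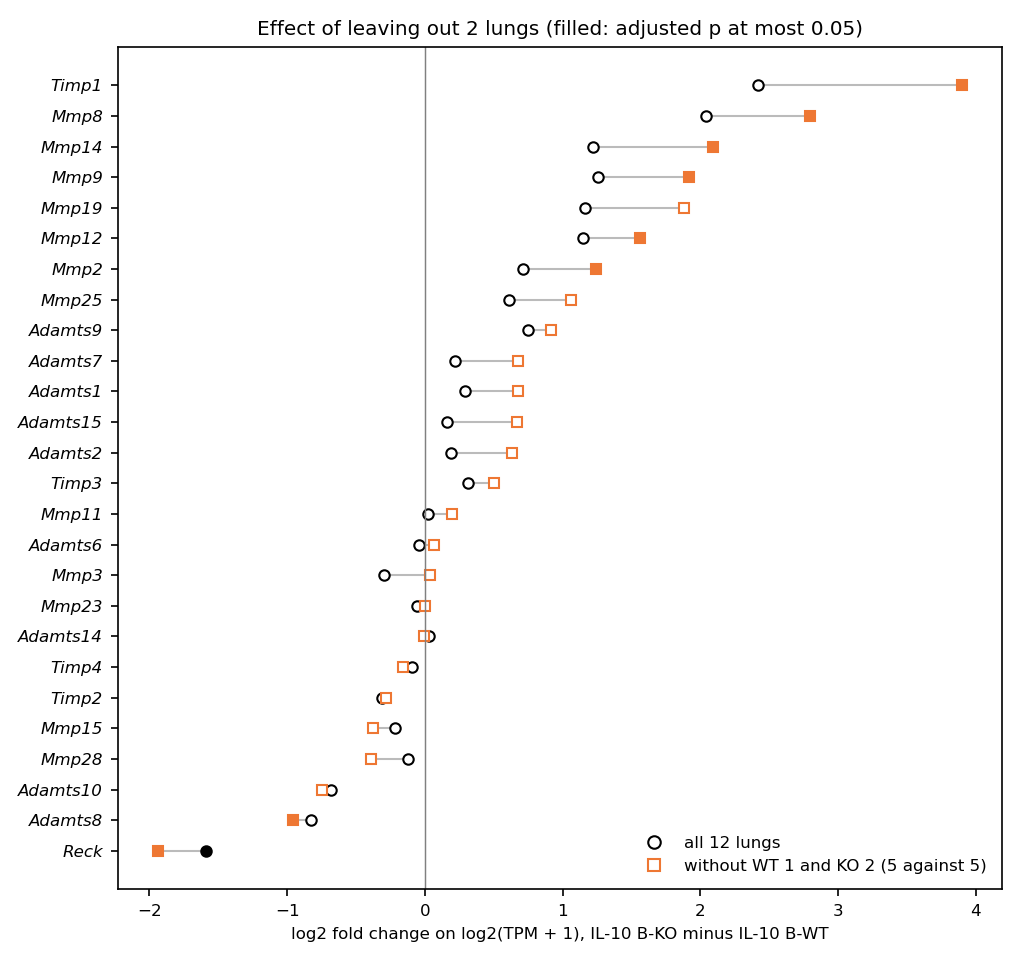
Log2 fold change of the 26 members tested, with all 12 lungs (circles) and without wild-type replicate 1 and knockout replicate 2 (squares), on log2(TPM + 1). Filled symbols passed an adjusted p of 0.05: 1 circle (Reck) and 8 squares, and Timp1 moves most, from 2.42 to 3.90.

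Genes that work with these proteases were examined as 5 lists of 56 genes, 49 of them tested. Of the 49, 2 passed the adjusted p (0.522% of all tested genes did), both lower in knockout lungs. Adamtsl3, an ADAMTS-like matrix protein without protease activity, was 2.24 to 5.75 TPM in wild-type lungs and 0.52 to 1.56 TPM in knockout lungs (log2 fold change -1.29, SE 0.21, adjusted p = 0.0195), and these groups did not overlap. Pcolce2, an enhancer of procollagen C-proteinase, was 18.3 to 71.4 TPM and 5.30 to 19.0 TPM (log2 fold change -2.07, SE 0.34, adjusted p = 0.0195). Of these 2 calls, 0 were left without wild-type replicate 5, without knockout replicate 5, or with no filter on low values, and 1 was left without knockout replicate 1 or 3, after quantile normalization or median centring, and at a mean TPM of at least 5. Among the ADAMTS-like proteins, 3 of 5 tested were lower and 2 higher, with a median log2 fold change of -0.36, and Adamtsl5 was next at -0.67 (adjusted p = 0.379). Among the 11 tested activators, partners and other inhibitors of MMPs, 9 were higher and 2 lower, with a median of 0.45. Sdc1, a syndecan that MMPs shed, was next to Pcolce2 in that list, with a log2 fold change of 0.83 (adjusted p = 0.351). Lcn2, which binds Mmp9 and was chosen after its values were seen, was 52.0 to 3702 TPM and 166.5 to 5907 TPM (log2 fold change 2.51, SE 1.03, adjusted p = 0.356).

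The list of ADAM genes holds mostly membrane proteases that release cytokines and receptors. Of these 10 genes, 9 were higher, with a median log2 fold change of 0.51 and 0 past the adjusted p. Adam8, a sheddase of leukocytes, was 11.7 to 58.1 TPM in wild-type lungs and 19.2 to 179.9 TPM in knockout lungs (log2 fold change 1.32, SE 0.49, adjusted p = 0.328), and Adam15 had 0.61 (adjusted p = 0.343). Of the plasminogen system, which activates MMP precursors, 4 of 5 tested genes were higher and 1 lower, with a median of 0.63, and the smallest adjusted p-values were those of the receptor Plaur (0.69, adjusted p = 0.408) and the activator Plat (0.90, adjusted p = 0.427). Plg, the precursor of plasmin, was at 0.29 TPM at most. Of 18 matrix substrates tested, 13 were higher and 5 lower, with a median of 0.40 and 0 past the adjusted p, and the smallest p-values were those of Fbln1 (-0.81, adjusted p = 0.365) and Hspg2 (-0.42, adjusted p = 0.439). Markers of fibroblasts, a source of both matrix and MMPs, were lower in 5 of 8 genes and higher in 3, with 0 past the adjusted p. The higher ones included Col1a1 (0.87) and Col1a2 (0.52), which are also in the list of matrix substrates. The summed level of the 8 was 579 to 1873 TPM in wild-type lungs and 334.9 to 1159 TPM in knockout lungs. Inmt, with medians of 983 TPM in wild-type and 148 TPM in knockout lungs, weighs heavily in that sum. Without the 2 lungs, 18 of the 49 genes passed the adjusted p (36.7%, against 15.2% of all tested genes), 15 of them higher (30.6% against 10.3%) and 3 lower (6.12% against 4.94%).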

How the data were processed

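Total RNA of 12 lungs was sequenced, 1 library per mouse, with genotype and LPS treatment taken from the labels. The authors deposited 1 table of TPM, made with RSEM without pooling, with each column summing to between 991646 and 994430. The submitters' processing notes name fastp, HISAT, RSEM and GRCm38.p5, and versions and the annotation release are not given in the sources used here. The number of reads is unknown, so that counting error is unknown and count models were not used.

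Log2(TPM + 1) was compared between genotypes with limma 3.58.1 in R 4.3.3 (lmFit, eBayes with a trend), over genes with at least 1 TPM in at least 6 libraries, with Benjamini-Hochberg adjustment over all 15148. Exact permutation tests were two-sided (SciPy 1.17.1). Coordinates and exon overlaps came from GENCODE M21 on GRCm38, matched by gene ID for 52081 genes. The labels give no batch, and that the lungs came from separate mice is stated by the series. Unused columns of per-sample values numbered 0, and no pair of libraries was identical. The fit was also run on simulated data in which each gene varied independently. Those data lack the differences between lungs that many genes share here, so the run does not cover their effect on the calls.

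The genes were all Mmp, Timp and Adamts symbols with a number, and Reck. Described in full were members past the adjusted p, the 10 with the smallest p, and the 2 with the highest mean TPM in each class, and of the related lists those past the adjusted p and the 2 with the smallest p. Members, classes, marker lists and related lists were chosen with earlier results of these data known. Each choice was also changed alone: the pseudocount (0.1), the filter (none, or a mean of at least 5 TPM), the scaling (median centring, quantiles, or TPM rescaled without 395 immunoglobulin genes and Jchain), weights for library quality, a block for the replicate number, and the libraries (each left out in turn, and 2 together).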

Additional observations from a re-analysis of the deposited data

Results flagged for a closer look

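In groups of 6 lungs, a lung was marked where its gap to the nearest other lung, on log2(TPM + 1), was above Dixon's 95% critical value for the share of the group's range. Of 40 groups examined, from 20 members in each genotype, 6 had such a lung, where chance marks about 1 in 20. IL-10 B-WT replicate 1 was marked for 5 members: Reck at 7.62 TPM (next lowest 16.5 TPM), Mmp8 at 22.6 TPM (next highest 6.96 TPM), Mmp12 at 24.9 TPM (next highest 4.87 TPM), Timp1 at 251.2 TPM (next highest 14.3 TPM) and Mmp19 at 22.8 TPM (next highest 5.20 TPM). The sixth was Adamts6 in IL-10 B-KO replicate 6, at 5.02 TPM, where the next highest was 1.65 TPM. IL-10 B-KO replicate 2, one of the lungs left out together, was marked for no member.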

How the results depend on the processing

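The count of 1 member past the adjusted p was 0 with no filter, after rescaling without immunoglobulin genes, quantile normalization or median centring, 4 with array quality weights and 8 without 2 lungs, and 0 to 4 without 1 lung at a time. The share of all tested genes moved with these counts, from 0.522% to 0.0253% with no filter, 0.186% to 0.29% under these scalings, 4.42% with weights, 15.2% without 2 lungs and 0.125% to 5.02% without 1 lung. The log2 fold change of Reck stayed between -1.83 and -1.44 without 1 lung at a time. The 5 members higher at an unadjusted p became 10 without 2 lungs and 1 to 9 without 1 lung, and the 4 lower ones 2 to 4. The count of higher members was 1 without IL-10 B-WT replicate 5, the library with the lowest quality weight (0.157), and also 1 without IL-10 B-KO replicate 3. The median log2 fold change was then 0.02 and -0.02 over the members, and -0.02 and 0.06 over all tested genes. The median log2 fold change of the members lay between -0.02 and 0.42 without 1 lung and was 0.57 without 2. The 2 related genes past the adjusted p became 0 with no filter, 1 with a mean of at least 5 TPM, quantile normalization or median centring, 18 without 2 lungs and 0 to 4 without 1 lung. With the replicate number as a block, 0 members and 0 related genes passed the adjusted p and 2 members were higher before adjustment (Reck -1.59, adjusted p = 0.158). Lungs of the same number correlated between -0.292 and 0.046 in their deviations from the group means. For 0 of 12 lungs was the lung of its own number the best correlate in the other genotype. The values thus showed no sign of pairing by number, but they cannot exclude a shared litter or day of processing.

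Directions that turned were all of members far from the threshold. Mmp11 was -0.04 after rescaling without immunoglobulin genes, -0.09 after quantile normalization and after median centring, and -0.13 with array quality weights, and -0.24 to 0.18 without 1 lung. Adamts14 was -0.01 after that rescaling, -0.08 after median centring, -0.25 with weights and -0.00452 without 2 lungs, and -0.12 to 0.19 without 1 lung. Adamts6 was 0.05 with weights and 0.07 without 2 lungs, and -0.29 to 0.13 without 1 lung, and Mmp3 was 0.04 without 2 lungs and -0.60 to 0.09 without 1 lung. Adamts2 lay between -0.07 and 0.44 and Mmp28 between -0.27 and 0.03 without 1 lung. Of 417 values of single members under alternatives, 359 kept direction and side of the threshold, 13 passed it only there, 15 no longer passed it and 30 turned direction. The causes were not tested. Without read counts, low values have no known precision, and 21 members were below the minimum and had no limma test.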
